A study of Mus musculus with 8 samples.

Results

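Heterotrimeric G proteins were examined through 10 genes: the Gi class alpha subunits Gnai1, Gnai2, Gnai3 and Gnao1, the Gq class alpha subunits Gnaq and Gna11, the G12 class alpha subunits Gna12 and Gna13, and the beta subunits Gnb1 and Gnb2. The genes were chosen by name, and every probe annotated to them was used, 12 probes in all out of 25697 on the array. These probes cover 9 of the 10 genes, among 16593 genes with a named probe. Gnai1 was not analysed here. Expression was measured in 4 arrays of PMCA4 knockout cells and 4 arrays of PMCA4 wild-type cells. PMCA4, encoded by Atp2b4, is a pump of the plasma membrane that moves calcium out of the cell. All cells were primary vascular smooth muscle cells from the carotid artery of male mice on the C57bl6 background. They had been synchronised with serum, stimulated with serum and the platelet-derived growth factor PDGF-BB, stained with the DNA dye Hoechst and sorted for early G1. Both genotypes thus had the same growth factor treatment, and no unstimulated cells were part of the design. The age of the mice and the part of Atp2b4 that was deleted are not given in the sources used here. Separate animals or cultures behind the arrays of a genotype are not stated in the labels, so a p-value here sets a difference against the spread among these arrays, which may be technical.

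A heterotrimeric G protein carries the signal of a G protein coupled receptor across the membrane. The receptor makes the alpha subunit exchange GDP for GTP, the alpha subunit parts from the beta and gamma dimer, and both act on effectors until the alpha subunit hydrolyses its GTP. RGS proteins speed up that hydrolysis, mostly on the Gi and Gq classes. Gi alpha subunits lower cyclic AMP through adenylyl cyclase, and Gq alpha subunits activate phospholipase C beta and so release stored calcium. G12 alpha subunits act on the actin cytoskeleton. In arterial smooth muscle the Gq and G12 classes are known for contraction in response to vasoconstrictors.

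The genotypes lay far apart as wholes. Within a genotype the arrays correlated at 0.991 or above over the tested probes, and no array correlated above 0.947 with an array of the other genotype. From 11697 to 11987 probes of an array were above background, at a detection p under 0.05. The 1 Atp2b4 probe above background read 7.17, 6.99, 6.56 and 7.07 on the log2 scale in knockout arrays, against 6.72, 6.90, 7.05 and 6.89 in wild-type arrays, a log2 difference of 0.06 (95% confidence interval from -0.23 to 0.34). The groups overlapped. Whether this probe lies inside or outside the deleted part is not known, so it cannot check the genotype. The direction of each difference therefore rests on the labels. Of 12 smooth muscle markers 8 were tested, 7 of them higher and 1 lower in knockout, while Cnn1 and Synpo2 were not above background on any array. All 9 adventitial fibroblast markers on the array were tested and higher, with their log2 values summing to between 98.0 and 99.0 in knockout arrays and between 69.3 and 71.7 in wild-type arrays. Of 10 endothelial markers 3 were tested, with Flt1 higher, Plvap lower and Egfl7 not passing, and Pecam1, Cdh5, Kdr, Tek, Tie1 and Vwf were not above background on any array. Of 8 leukocyte markers on the array 3 were tested, with Lyz2 and Cd3e higher, Cd14 lower and Ptprc, Adgre1, Itgam, Cd79a and Tyrobp not above background on any array. The 3 tested markers of Schwann cells and neurons, Uchl1, Ncam1 and Cnp, were higher, while no array had S100b, Tubb3, Th or Dbh above background. As a yardstick for these marker counts, 57.6% of the 8302 tested genes passed, with rises in 26.9% and falls in 30.7%. A single passing marker was therefore not unusual. Among the higher markers, Myh11 and Mylk of smooth muscle, Lum of fibroblasts, and Lyz2 and Cd3e were above background on all 4 knockout and 0 wild-type arrays. The part of these differences between cell types in the results below was not tested. In RNA of a whole sorted population, fewer cells of a type and less RNA per cell cannot be told apart.

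G protein subunits differed little between the genotypes. Of the 12 probes, 8 passed the filter on dim probes (above background, at that detection p, on 4 or more of the 8 arrays), 1 for each of 8 genes. By limma, with p-values adjusted over all 12040 probes tested, 4 of these 8 passed an adjusted p of 0.05. Gnaq, Gna13 and Gnb2 were lower in knockout, by 1.20-fold, 1.16-fold and 1.18-fold, and Gnb1 was higher by 1.16-fold. The share of all tested probes that passed was 56.3%, with 26.3% higher and 30.0% lower, so the members passed about as often as probes in general. The sizes were on the small side of the array as well. The median size of the log2 difference was 0.21 over the 8 member probes and 0.27 over all tested probes. None of the 8 member probes reached a 2-fold difference, which 10.2% of all tested probes reached with a passing adjusted p.

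**Figure D1:**
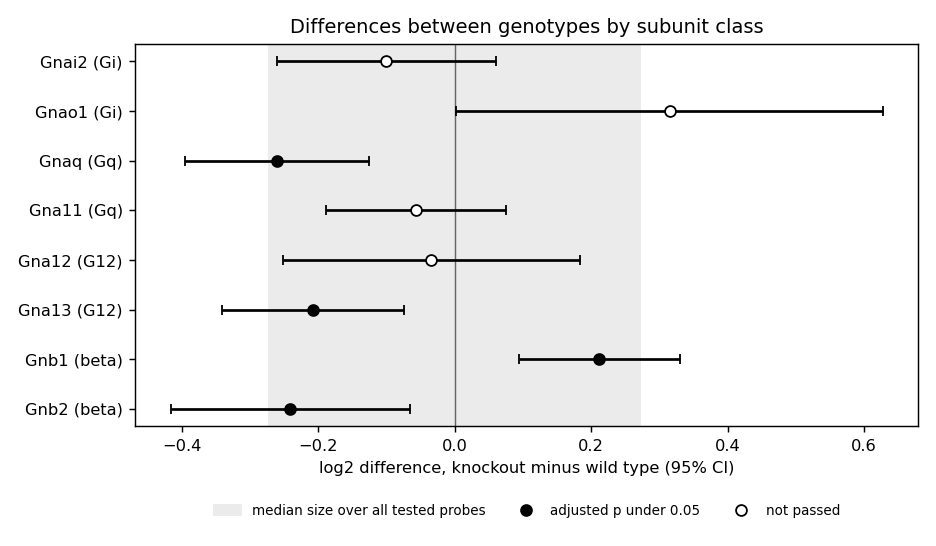
Log2 difference of each tested G protein subunit probe, knockout minus wild type (x axis), with its 95% confidence interval from the limma fit, by gene and class (y axis). Filled points passed an adjusted p of 0.05 and open points did not, and the grey band spans the median size over all tested probes, 0.27 to either side of 0. Gnb1 lies to the right and Gnaq, Gna13 and Gnb2 to the left of 0.

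The promoters of the 4 genes that passed are shown because 3 of them moved one way and the other moved the opposite way. Each is the RefSeq sequence from 250 bases before to 50 bases after the annotated start, of build GRCm38.p6, read 5′ to 3′ on the gene's strand. RefSeq sequences were at hand for all members but Gnai2. Capitals mark the GC box, GGGCGG, on either strand, the site bound by Sp and Kruppel-like factors.
Gnaq, chr19:16132434-16132733, plus strand: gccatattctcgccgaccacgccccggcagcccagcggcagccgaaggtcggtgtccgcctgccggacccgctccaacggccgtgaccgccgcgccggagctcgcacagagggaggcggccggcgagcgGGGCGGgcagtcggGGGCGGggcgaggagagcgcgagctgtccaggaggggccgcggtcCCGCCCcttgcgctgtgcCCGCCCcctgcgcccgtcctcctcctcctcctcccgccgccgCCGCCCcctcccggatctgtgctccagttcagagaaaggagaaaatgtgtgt
Gna13, chr11:109362544-109362843, plus strand: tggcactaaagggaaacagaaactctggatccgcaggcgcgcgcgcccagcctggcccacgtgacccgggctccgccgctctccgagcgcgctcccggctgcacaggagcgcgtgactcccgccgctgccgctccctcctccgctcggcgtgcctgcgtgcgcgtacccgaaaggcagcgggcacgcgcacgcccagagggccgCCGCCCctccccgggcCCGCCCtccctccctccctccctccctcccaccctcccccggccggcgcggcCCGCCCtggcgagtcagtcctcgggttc
Gnb2, chr5:137533257-137533556, minus strand: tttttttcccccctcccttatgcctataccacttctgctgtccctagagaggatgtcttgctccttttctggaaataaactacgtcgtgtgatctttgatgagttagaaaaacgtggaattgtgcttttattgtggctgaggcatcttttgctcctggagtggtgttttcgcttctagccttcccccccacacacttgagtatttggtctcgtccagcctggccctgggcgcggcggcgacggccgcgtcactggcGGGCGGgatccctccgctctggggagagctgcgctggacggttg
Gnb1, chr4:155491111-155491410, plus strand: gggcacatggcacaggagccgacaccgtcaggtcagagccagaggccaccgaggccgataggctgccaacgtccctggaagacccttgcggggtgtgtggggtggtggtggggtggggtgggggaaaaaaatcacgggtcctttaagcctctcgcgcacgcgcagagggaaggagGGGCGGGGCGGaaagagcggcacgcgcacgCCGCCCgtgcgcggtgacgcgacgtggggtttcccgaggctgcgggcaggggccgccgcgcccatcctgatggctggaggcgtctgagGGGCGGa
The GC box matched 5 times in the Gnaq promoter, 3 times in that of Gna13, 1 time in that of Gnb2 and 4 times in that of Gnb1, counting matches that overlap. Among the members that did not pass or were not tested, it matched 7 times in the promoter of Gna12, 3 times in that of Gnai1, 2 times in that of Gna11 and 0 times in those of Gnao1 and Gnai3. Of all 32851 promoters in the table, 35.7% held at least 1. The Gnb2 promoter stood apart from the other 3 in base composition. It had 17 CG dinucleotides and 55.0% G and C, while those of Gnaq, Gna13 and Gnb1 had 39, 40 and 31 CG dinucleotides and 75.0%, 76.7% and 70.3% G and C. The median promoter had 7 CG dinucleotides and 52.7% G and C. None of the 4 held the TATA box, TATAAA, on either strand, which 13.6% of all promoters did, nor the CCAAT box, CCAAT, which 37.4% did. The E box, CACGTG, occurred in the promoter of Gna13 alone of the 4, and in 7.15% of all promoters. The core of the cyclic AMP response element, TGACG, was found in the Gnb1 promoter at 2 places and in the Gnb2 promoter at 1, on either strand, and in 20.8% of all promoters. The letters GGAAA, the core bound by NFAT factors, occurred on either strand 3 times in the Gnb1 promoter, 2 times in that of Gnb2 and 1 time in that of Gna13, and in 61.3% of all promoters. These matches describe the letters only.

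Among the Gi class, Gnai2 was the bright member. Gnai2, the Gi alpha subunit found in most tissues, read 12.44, 12.42, 12.38 and 12.20 on the log2 intensity scale in knockout arrays, against 12.44, 12.44, 12.40 and 12.57 in wild-type arrays. The groups overlapped, with knockout replicate 4 the lowest and wild-type replicate 4 the highest of the 8. The log2 difference was -0.10 (95% confidence interval from -0.26 to 0.06, limma adjusted p = 0.259), so a fall of more than 0.26 or a rise of more than 0.06 lies outside its interval.

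Gnao1, the Go alpha subunit best known from neurons, was near background. Its brighter probe read 6.58, 6.01, 6.25 and 6.51 in knockout arrays, against 5.76, 6.01, 6.06 and 6.26 in wild-type arrays, and 1 wild-type array was not above background. The groups overlapped, and the log2 difference of 0.31 did not pass (95% confidence interval from 0.0023 to 0.63, limma adjusted p = 0.0800). This call depended on single arrays, since it passed without knockout replicate 2 (log2 difference 0.42, limma adjusted p = 0.0202) and without wild-type replicate 4 (0.39, limma adjusted p = 0.0453). The second Gnao1 probe was not above background on any array, with background-subtracted intensities from -9.30 to -0.127 in knockout and from -10.5 to 1.62 in wild type.

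Gnai3, the third inhibitory alpha subunit, had 1 probe, which was not above background on any array. Its intensities lay between -11.4 and 3.67 in knockout and between -8.52 and -4.35 in wild type, with detection p-values from 0.305 to 0.680 and from 0.509 to 0.608 in these groups. A probe at this level gives no difference to report and says nothing certain about the transcript.

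Gnaq, the Gq alpha subunit that couples receptors to phospholipase C beta, had 3 probes of which 1 was bright. That probe read 10.15, 10.19, 10.16 and 10.25 in knockout arrays, against 10.41, 10.45, 10.55 and 10.38 in wild-type arrays. All 4 knockout arrays lay below all 4 wild-type arrays, which was also so in 1 direction or the other for 51.5% of all tested probes. The means were 10.19 ± 0.04 in knockout and 10.45 ± 0.07 in wild type (SD, n = 4 each), a log2 difference of -0.26 (standard error 0.060, limma adjusted p = 0.00433). On untransformed intensities the range was 1079 to 1191 in knockout and 1281 to 1452 in wild type. The other 2 probes of Gnaq were dim. One was not above background on any array, with intensities from -5.52 to 12.3 in knockout and from -2.63 to 16.1 in wild type. The remaining one was above background on 1 knockout and 1 wild-type array, with intensities from 19.6 to 43.2 in knockout and from 7.76 to 56.9 in wild type. Neither was tested, so the fall of Gnaq rests on 1 probe of 3, and these 3 probes show how far probes annotated to 1 gene can differ in brightness on this array.

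Gna11, the close relative of Gnaq that shares its effectors, did not pass. It read 10.71, 10.67, 10.68 and 10.61 in knockout arrays, against 10.67, 10.75, 10.67 and 10.81 in wild-type arrays. The groups overlapped, and the log2 difference was -0.06 (95% confidence interval from -0.19 to 0.08, limma adjusted p = 0.439). The interval of Gna11 holds differences up to -0.19 and that of Gnaq runs from -0.40 to -0.13, so the intervals overlap, and the difference between the 2 genes was not tested.

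Within the G12 class, Gna13 passed and Gna12 did not. Gna13, an alpha subunit known for its part in cell shape and movement, read 9.76, 9.76, 9.85 and 9.79 in knockout arrays, against 10.09, 10.004, 9.96 and 9.94 in wild-type arrays. All 4 knockout arrays lay below all wild-type arrays, a separation in 1 direction or the other that 51.5% of all tested probes had. The means were 9.79 ± 0.04 in knockout and 9.998 ± 0.070 in wild type (SD, n = 4 each), a log2 difference of -0.21 (standard error 0.060, limma adjusted p = 0.0135). Gna12, its nearest relative, read 8.10, 7.81, 8.03 and 8.20 in knockout arrays, against 7.88, 8.14, 8.17 and 8.09 in wild-type arrays. These groups overlapped almost fully, with the lowest and the highest of the 8 values both in knockout. The log2 difference of Gna12 was -0.03 (95% confidence interval from -0.25 to 0.18, limma adjusted p = 0.781), and without knockout replicate 2 its sign turned, at 0.04.

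The beta subunits passed in opposite directions. Beta subunits bind a gamma subunit tightly and act with it on channels and kinases once the alpha subunit has left. Gnb1 read 12.59, 12.59, 12.56 and 12.62 in knockout arrays, against 12.38, 12.42, 12.37 and 12.35 in wild-type arrays. All 4 knockout arrays lay above all wild-type arrays, where 51.5% of all tested probes were separated in 1 direction or the other. The spread within a group was the smallest among the 8 tested member probes. The means were 12.59 ± 0.02 in knockout and 12.38 ± 0.03 in wild type (SD, n = 4 each), a log2 difference of 0.21 (standard error 0.053, limma adjusted p = 0.00647). Gnb2 read 12.05, 11.98, 11.95 and 11.90 in knockout arrays, against 12.16, 12.09, 12.19 and 12.41 in wild-type arrays. The knockout arrays again lay on one side, below the wild-type arrays, by a narrow margin between knockout replicate 1 and wild-type replicate 2. The means were 11.97 ± 0.06 in knockout and 12.21 ± 0.14 in wild type (SD, n = 4 each), a log2 difference of -0.24 (standard error 0.078, limma adjusted p = 0.0241). The Gnb2 call was lost without knockout replicate 3 (limma adjusted p = 0.0557), without knockout replicate 4 (0.0634) and without wild-type replicate 4 (0.0547), where the log2 difference was -0.23, -0.22 and -0.17.

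**Figure D2:**
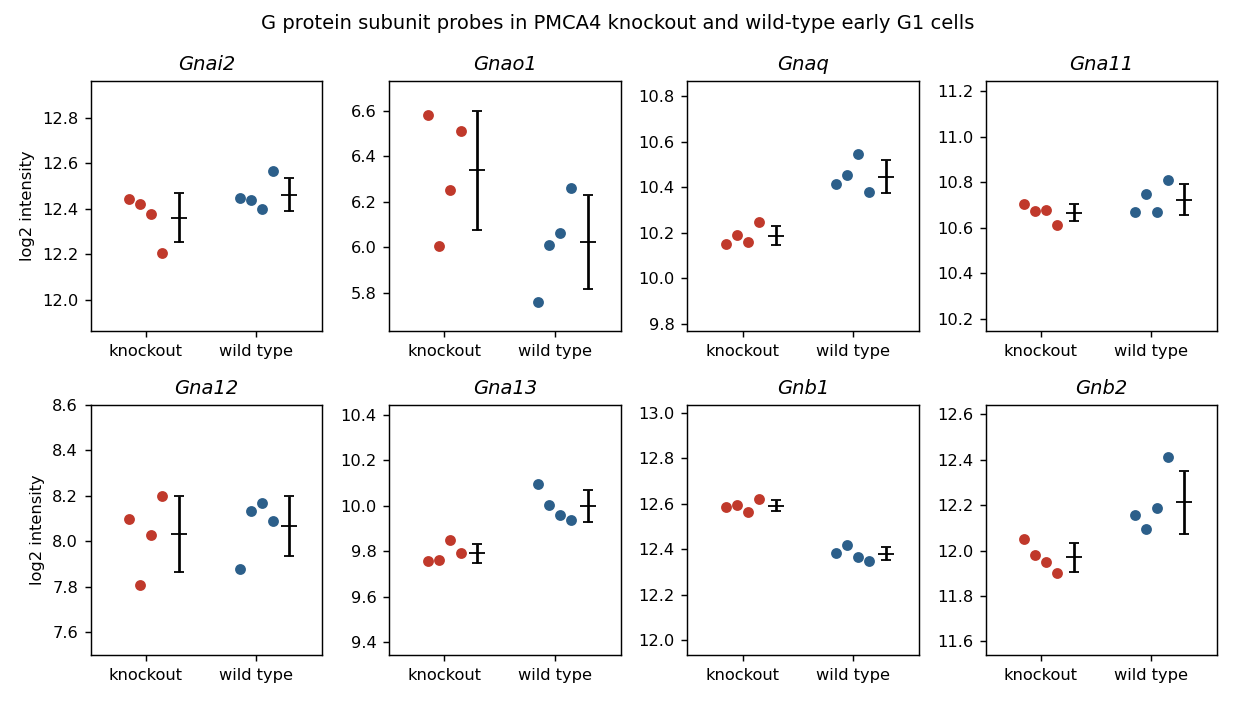
Log2 intensity (y axis, each panel spanning the same range) of the 8 tested G protein subunit probes on each array, with the 4 knockout arrays left of the 4 wild-type arrays (x axis) and the mean and SD beside each group in black. The groups do not overlap for Gnaq, Gna13, Gnb1 and Gnb2, and they overlap for Gnai2, Gnao1, Gna11 and Gna12. Of all tested probes, 51.5% had groups that do not overlap.

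Set by class, the subunits on which RGS proteins act did not move as a block. Of the 4 tested probes of the Gi and Gq classes, 0 were higher, 1 was lower and 3 did not pass, with a median log2 difference of -0.08. Of the 4 tested probes of the G12 class and the beta subunits, 1 was higher, 2 were lower and 1 did not pass, with a median of -0.12. Over all tested probes 26.3% were higher and 30.0% lower, 56.3% in all, and the median was -0.02. Each class had 2 tested probes, and the difference between classes was not tested. When each probe was centred on its mean over the 8 arrays, the Gq class averaged from -0.087 to -0.075 in knockout arrays. In wild-type arrays it averaged from 0.035 to 0.101, without overlap, a separation that 51.5% of single tested probes also had. Of its 2 probes, that of Gnaq was separated by itself and that of Gna11 overlapped. The beta subunits averaged from -0.032 to 0.032 in knockout and from -0.033 to 0.093 in wild type, the opposite moves of Gnb1 and Gnb2 having largely cancelled. The averages of the Gi class ran from -0.083 to 0.216 in knockout and from -0.193 to 0.117 in wild type, and those of the G12 class from -0.188 to 0.025 in knockout and from 0.013 to 0.097 in wild type, both overlapping.

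Of 21 RGS genes listed, whose products act on the alpha subunits, 18 were on the array and 6 were tested. All 6 passed, 2 higher and 4 lower. Of the 8302 genes tested 57.6% passed, 26.9% higher and 30.7% lower, each gene taken by its brightest tested probe. Rgs1, Rgs2, Rgs4, Rgs5, Rgs7, Rgs8, Rgs9, Rgs13, Rgs14, Rgs18 and Rgs20 were not above background on any array. Rgs16, which acts on Gi and Gq alpha subunits, read 11.78, 11.74, 11.82 and 11.86 in knockout arrays, against 6.26, 6.12, 5.87 and 6.06 in wild-type arrays, a log2 difference of 5.72 (limma adjusted p = 4.08e-11). Rgs3 had a log2 difference of 1.55 by its brightest probe, and the other 2 of its tested probes did not pass as higher. Rgs10 had one of -0.88. Rgs6 was above background in wild type only, on all 4 arrays, and was at least 1.27-fold lower in knockout (limma adjusted p = 5.26e-06). Its wild-type values of 6.07, 6.16, 6.36 and 5.93 were close to background too.

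Of the remaining G protein subunits, 14 of 23 were tested, with 4 higher, 3 lower and 7 that did not pass. Over all genes tested 57.6% passed, 26.9% higher and 30.7% lower. The larger rises were those of gamma subunits, the partners of the beta subunits. Gng8 read 9.41, 9.52, 9.37 and 9.36 in knockout arrays, against 7.70, 7.61, 7.73 and 7.71 in wild-type arrays, 3.30-fold higher (log2 difference 1.72, standard error 0.061, limma adjusted p = 8.27e-09). Gng2 read 9.24, 9.60, 9.59 and 9.53 in knockout arrays, against 7.73, 7.92, 7.98 and 7.71 in wild-type arrays, 3.16-fold higher, and both of its tested probes passed. Neither gene's groups came near each other. Gng7 was 1.39-fold higher. Gnat1, the transducin alpha subunit of rod photoreceptors, was above background on all 4 wild-type and 0 knockout arrays, at least 1.20-fold lower, its wild-type values of 5.93, 6.28, 6.13 and 5.85 being close to background too.

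Regulators and effectors moved in both directions. Of the 9 tested among the other regulators, 2 rose, 4 fell and 3 did not pass, where 57.6% of all genes tested passed, 26.9% higher and 30.7% lower. Gpsm1 and Gpsm2 encode proteins that hold Gi alpha subunits in the GDP state, and both were lower in knockout. Gpsm1 read 7.13, 7.30, 7.07 and 7.16 in knockout arrays, against 8.55, 8.64, 8.59 and 8.57 in wild-type arrays, 2.68-fold lower (limma adjusted p = 5.37e-08). Gpsm2 was 1.93-fold lower (limma adjusted p = 0.000797). Arrb2, a beta-arrestin that ends receptor signalling, was above background on 1 knockout array and on all 4 wild-type arrays, and was 2.79-fold lower by the fit. Grk5, a kinase that marks active receptors for arrestin, was 1.67-fold higher.

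Adenylyl cyclases make cyclic AMP, and how they answer to Gi alpha subunits and to the beta and gamma dimer differs between types. Of the 5 adenylyl cyclase genes tested 3 were higher, 1 was lower and 1 did not pass, beside the 57.6% of all genes that passed. Adcy8 and Adcy4 were above background on all 4 knockout and 0 wild-type arrays, at least 2.34-fold and at least 1.18-fold higher. The knockout values of Adcy4, 5.95, 5.96, 6.12 and 6.16, were close to background too. Adcy7 read 9.70, 9.44, 9.63 and 9.54 in knockout arrays, against 8.96, 8.64, 8.67 and 9.18 in wild-type arrays, 1.64-fold higher (limma adjusted p = 0.000622), and Adcy6 was 1.17-fold lower. Of the 2 tested phospholipase C beta genes, the effectors of Gnaq, Plcb3 was 1.12-fold lower (limma adjusted p = 0.0338) and Plcb4 had a log2 difference of 0.06 (limma adjusted p = 0.750). The Plcb3 call was lost without knockout replicate 1 or 3 or without wild-type replicate 2, 3 or 4 (limma adjusted p from 0.0631 to 0.0885).

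**Figure D3:**
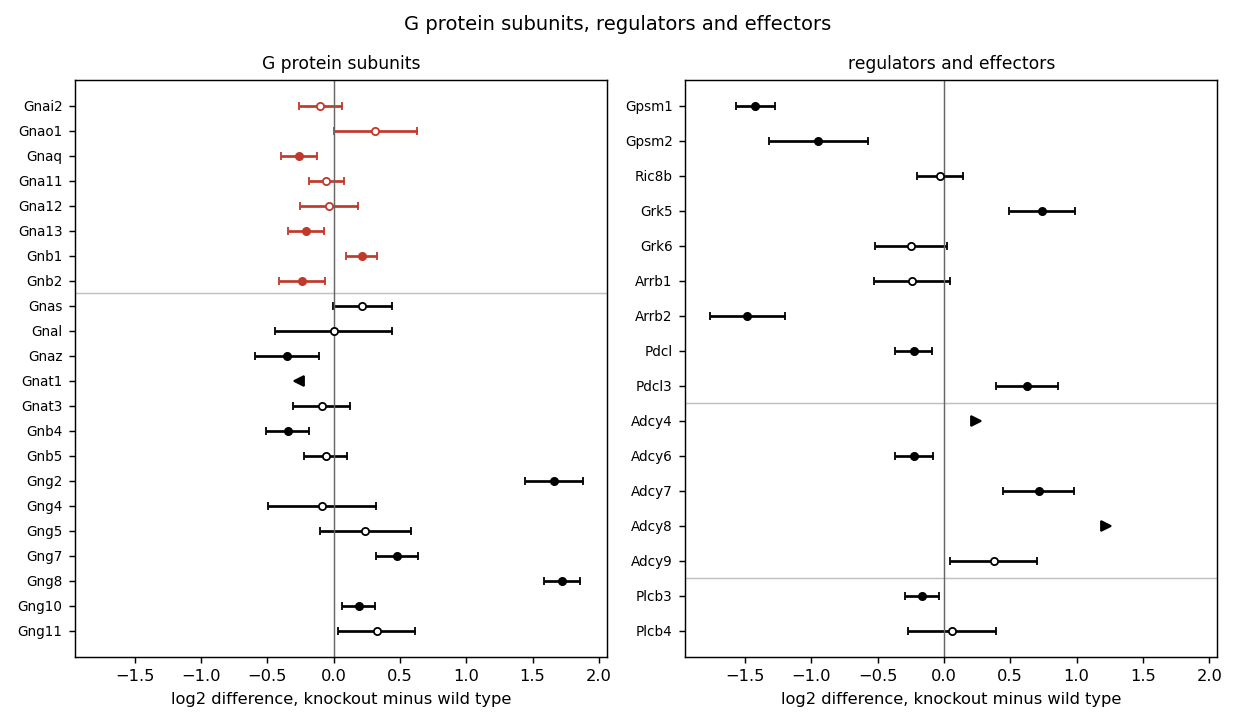
Log2 difference, knockout minus wild type (x axis), with its 95% confidence interval, for the tested members (red) and the other tested subunits (left panel) and for regulators, adenylyl cyclases and phospholipases C beta, parted by lines (right panel). Filled points passed an adjusted p of 0.05 and open points did not. Triangles give lower bounds, without an interval, for the 3 genes not above background in 1 genotype, Gnat1, Adcy4 and Adcy8. The red points lie between -0.26 and 0.31, while Gng8 lies at 1.72, Gng2 at 1.66, Gpsm1 at -1.42 and Arrb2 at -1.48.

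Gnaq had the largest difference among the members that passed, and the genes closest to its profile were found over all 8302 tested genes. Likeness was the root mean square distance over the 8 arrays after each gene was centred on its own mean. The 5 closest genes were Slc39a11 at 0.021, a zinc transporter, Emc10 at 0.032, a subunit of the complex that inserts proteins into the endoplasmic reticulum membrane, Csnk1g3 at 0.033, a casein kinase, Twist1 at 0.033, a mesenchymal transcription factor, and Pitpna at 0.036, a phosphatidylinositol transfer protein. Their log2 differences lay between -0.29 and -0.24. Among the other members Gna13 was closest, at 0.081, rank 351 of 8301, followed by Gnb2 at 0.130 and Gna11 at 0.137. The 8 arrays fall into the 2 genotypes, and each of the 5 genes also passed as lower in knockout, so this distance reads mainly the difference between the genotypes.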

How the data were processed

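Total RNA of sorted cells was extracted with a PicoPure kit and made into biotinylated cRNA for Illumina arrays, per the labels' protocols. The deposited table of signal intensities is not normalized, and between 28.4% and 29.7% of its values per array are below 0, so background had been subtracted before deposit. It also holds a detection p-value for each probe and array, per the file headers. A second deposited table holds log2 values with equal sorted values in every column, and served as an alternative only. No source used here names the scanner software. 0 columns of per-sample values were left unused.

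The neqc function of limma 3.58.1 (R 4.3.3) corrected and quantile normalized the intensities, with an offset of 16. The 12040 probes whose detection p was under 0.05 on 4 or more of the 8 arrays were fitted with lmFit and eBayes, with the genotype as the only term and Benjamini-Hochberg adjustment over all of them. Intervals and standard errors come from that fit. The number of arrays limits the precision. The fit was tested on simulated data with known differences and no normalization step. Few of the simulated probes differed, whereas 56.3% of the tested probes passed here, so the setting was unlike these data. Probes were named by the platform's annotation, with current symbols taken by Entrez identifier from the gene table of GRCm38.p6: 23978 had 1 symbol, 0 had several and 1719 had none. Members are given per probe. Other genes are given by their tested probe of highest mean. Where a probe was not above background on any array of a genotype, the fold is a lower bound, each array of that genotype counting at the lowest detected value of the array where its own value was below that.

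Named were all member probes, Atp2b4, up to 4 passing genes of largest difference from each other list, and the 5 genes nearest to the member of largest passing difference. Members and lists were chosen with earlier results of these data known. 1 list of effector genes is not reported here. Alternatives were 2 other background corrections, scaling to the median or by cyclic loess, the values of the deposited log2 table, other filters, an intensity trend with robust spread, weights per array, a block for the replicate number, averaging a gene's probes, and leaving out each array. Figures were drawn with matplotlib 3.10.9.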

Additional observations from a re-analysis of the deposited data

Results flagged for a closer look

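Grk5, the receptor kinase, had 1 array far from the others of its group. Knockout replicate 4 read 8.32 on the log2 scale and the other 3 knockout arrays read between 8.66 and 8.71, so its gap to the nearest of them was 0.873 of the range of the group, above Dixon's 95% critical value for 4 samples. It still lay above all 4 wild-type arrays. This was 1 of 70 groups of 4 arrays looked at in this way, of which chance alone would mark about 1 in 20. None of the 12 member probes had such an array in either genotype.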

How the results depend on the processing

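Of 554 recomputed log2 differences, for 31 named probes or genes under up to 18 alternatives, 540 kept their direction and their side of the threshold, 10 were no longer past it, 2 passed newly and 2 turned sign. Gnaq, Gna13 and Gnb1 passed in the same direction under all 18, with log2 differences from -0.29 to -0.23, from -0.24 to -0.18 and from 0.20 to 0.28 and limma adjusted p-values of at most 0.0180, 0.0418 and 0.0269. The 2 sign changes were those of values that did not pass: leaving out 1 array, the log2 difference of Gna12 ranged from -0.0997 to 0.0408, above 0 only without knockout replicate 2 (limma adjusted p = 0.723), and that of Atp2b4 from -0.0158, without knockout replicate 1 (0.928), to 0.189. Leaving out 1 array at a time gave from 3 to 5 member probes past the threshold, from 1 to 2 of them higher and from 2 to 3 lower, the second higher one being Gnao1. Of all probes tested in these fits, from 51.4% to 55.2% passed. With 1 array fewer, the filter asked for 3 arrays in place of 4. The number of all probes past the threshold ranged from 6303 to 7094 over the alternatives, and that of other G protein signalling genes from 21 to 27. The numbers tested differed too. The share of tested probes that passed ran from 27.6% of 25697 without the filter to 61.0% of 10525 at a detection p under 0.01. At that detection p, 27 of the other genes were tested in place of 36. The median of all probes shifted by less than 0.1 on the log2 scale under each scaling.

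The labels number the replicates 1 to 4 in both genotypes and do not say whether equal numbers mark paired samples. The deviations of same-numbered arrays from their group means correlated at 0.087, 0.023, -0.029 and 0.010, so no clear shared deviation was seen. Such correlations do not settle whether the samples were paired. With the replicate block, 3 member probes passed in place of 4, since Gnb2 had a limma adjusted p of 0.0526, and Plcb3 had one of 0.0696. Of all tested probes 54.3% passed with that block.

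Signal near background limits Gnao1, and leaves Gnai3 without a value.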
